A study of Mus musculus with 32 samples.

Results

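The first 2 h of the differentiation time course were examined in mouse embryonic stem (ES) cells carrying a doxycycline (Dox)-inducible GATA6 transgene. The comparison took the 4 libraries at 2 h and the 4 at 0 h, 8 of the 32 RNA-seq libraries of the series, and all 54233 rows of the count table, of which 15227 passed the filter on low counts and were tested. All libraries came from KH2 ES cells, labelled C57BL/6, with a TRE:GATA6-DSREd2 transgene, described by the study as a single copy in which a bidirectional Tet-responsive element drives GATA6-FLAG and DsRed2. The 0 h cells received no Dox and grew on gelatin in a serum-free medium with LIF, the MEK inhibitor PD0325901 and a GSK3 inhibitor that the labels call CHIR9902. The 2 h cells had been moved to serum medium with LIF, without either inhibitor, and with 1 µg/mL Dox for 2 h. Dox, serum and the loss of both inhibitors therefore began together, and their effects on any gene below cannot be told apart. No library with the new medium alone, or with Dox in the old medium, was analysed here.

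The 8 libraries held 3914631 to 11035765 reads on genes. On the first principal component, with 67.3% of their variance, the 0 h libraries lay apart from the 2 h libraries. The second, with 24.5%, set replicates 1 and 2 apart from replicates 3 and 4 at both times. The labels name no batch. Between these replicate sets 6411 genes (42.1% of those tested) differed at 0 h already, so the response was also computed within each set, and values within sets are given for some of the genes in which they differed. The labels do not say which replicates came from separate cultures, so p-values measure only the spread between these libraries. Levels are reads divided by the size factor of the library, called normalized counts. Fold changes are differences of mean log2(normalized count + 1), 2 h minus 0 h, and understate the change of genes near 0. Means are over the 4 libraries of a time, ± SD, and in a pair the first is at 0 h and the second at 2 h. Bulk RNA cannot tell a change in every cell from a change in some of them.

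ERK kinases act below growth factor receptors, RAS and MEK. When MEK is released from inhibition, active ERK enters the nucleus, and the transcription factors SRF and the ternary complex factors switch on immediate-early genes without new protein synthesis. Some of these genes encode AP-1 and EGR transcription factors. Others encode the phosphatases and adaptor proteins that switch ERK off again. GSK3 inhibition stabilises beta-catenin, which activates Wnt target genes with TCF factors, and in ES cells both inhibitors together hold the naive, epiblast-like state. Serum acts on actin and so on the MRTF cofactors of SRF and on YAP. GATA6 is the transcription factor that directs inner cell mass cells to primitive endoderm (PrE), the layer that lines the blastocyst cavity.

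Rises were more numerous and larger than falls. By limma with Benjamini-Hochberg adjustment, named for every adjusted p below, at a false discovery rate (FDR) below 0.1, 305 genes were at least 4-fold higher at 2 h (2.00% of the tested genes) and 53 at least 4-fold lower (0.348%). At 2-fold, 892 were higher (5.86%) and 636 lower (4.18%), and a gene is called higher or lower below when it passed this 2-fold rule. A rise of 16-fold or more was called for 53 genes, and a fall of that size for 1, Nkx1-2. Without a threshold of size the directions were nearly balanced, with 3373 genes higher and 3448 lower, and the median over all tested genes was -0.03 on the log2 scale. The 4-fold falls were the count that depended most on the scale: 17 genes were called on the deposited variance-stabilised values and 77 with limma-voom on the recovered reads, against 209 and 329 rises. Of the 305 genes, 75 had at most 3 reads in any 0 h library, so for these the size of the fitted change depends on the pseudocount. The 29 genes that were 4-fold higher with a mean of 1000 or more at 2 h included Plaur, Hbegf, Arc, Egr1, Errfi1, Klf6 and Sfn. No gene with a mean of 1000 or more at 0 h fell 4-fold.

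**Figure D1:**
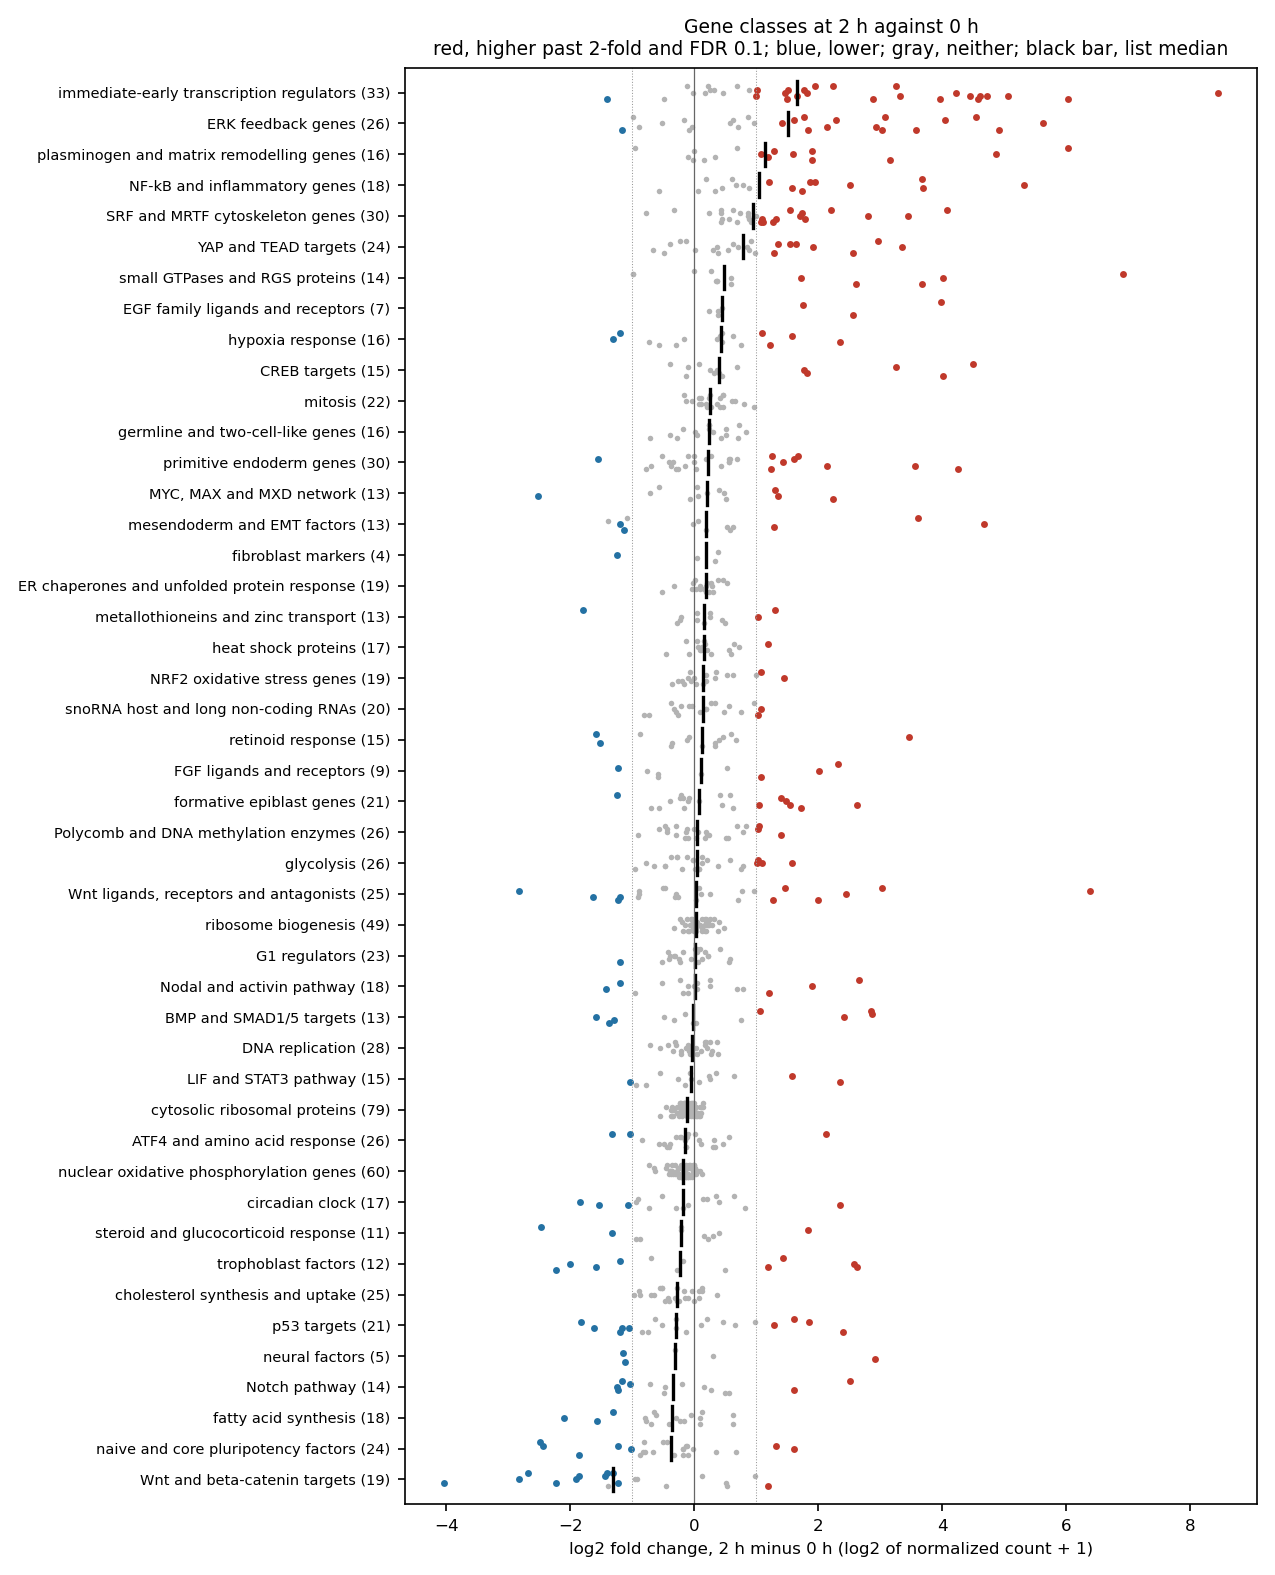
Each point is 1 tested gene of a list, the horizontal axis its log2 fold change (2 h minus 0 h), the black bar the list median, and the number in brackets the genes tested; red and blue points passed the 2-fold call. Immediate-early regulators (median 1.66) and ERK feedback genes (1.52) stand at the top, Wnt and beta-catenin targets (-1.32) at the bottom, and the ribosomal and oxidative phosphorylation lists hold no called gene.

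GATA6 itself was measured in a row for the endogenous gene and a row for the transgene. The transgene row held no read in any 0 h library, and 540.3, 510.3, 682 and 739.5 normalized counts in replicates 1 to 4 at 2 h, at least 813-fold higher when 3 reads over the 0 h group are taken as the limit. The endogenous Gata6 row held 0, 0.679, 0.806 and 0 at 0 h and 11.4, 14.3, 16.4 and 17.2 at 2 h. Its sums of 2 and 65 reads gave a ratio of 29.6, with an exact 95% interval for counting error of 7.87 to 249. Both rows rose in all 4 replicates. How reads that fit both rows were divided is not given in the sources used here, so part of the Gata6 row may come from the transgene. The endogenous row averaged 171 at 4 h and 346 at 8 h.

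Markers of ES cells remained abundant at 2 h. Pou5f1 averaged 9104 ± 1585 to 8014 ± 954 from 0 h to 2 h (log2 fold change -0.18, SE 0.10, adjusted p = 0.18, or 0.039 with the replicate block), and Sox2 1922 ± 293 to 1785 ± 17.5 (log2 fold change -0.09, SE 0.21, adjusted p = 0.76). None of the 6 ES cell markers was called, and their summed level was 27616 to 29000 at 0 h and 20882 to 22031 at 2 h. Of the 7 PrE markers Gata6 and Pdgfra were called higher, while Gata4, Sox17, Sox7, Foxa2 and Dab2 were not called. The summed PrE markers were 44.8 to 70.1 at 0 h and 59.2 to 117 at 2 h. Of the 7 fibroblast markers 1 passed the filter and was not called, Postn and Dcn were at 0 in all 8 libraries, and the sums were 11.3 to 12.9 and 14.1 to 33.97. Trophoblast markers summed to 33.9 to 55.7 and 51.9 to 101. Among the 4 tested, Gata3, Hand1 and Cdx2 were called higher, from sums of 4, 1 and 117 reads at 0 h. Of the 4 neural markers Sox1 was the member tested and was called lower (38.5 ± 7.84 to 17.7 ± 6.42), and Neurog2 was at 0 in all 8 libraries. The part of these cell types in the results was not tested.

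Setting aside the transgene row, the 12 largest rises among genes with a mean of at least 100 normalized counts at 2 h and no overlap between the 0 h and 2 h libraries were Egr3, Rrad, Wnt7b, Fosl1, Plaur, Pla2g7, Nppb, Phlda1, Sbsn, Ptgs2, Ptprn and Trpv3. The lack of overlap was part of this choice. Libraries of the 2 times did not overlap in 295 of the 305 genes called 4-fold higher and in 32.2% of all tested genes. Egr3, an EGR family zinc finger factor, held 0, 0, 0.806 and 0 at 0 h and 495, 547, 324 and 314 at 2 h. With 1 read at 0 h, its ratio of 1692 had a counting interval of 303 to 66860.0. Rrad, a small GTPase that inhibits calcium channels, went from 1.38, 1.36, 0 and 1.89 to 229.6, 232, 265 and 245 (log2 fold change 6.92, SE 0.50, adjusted p = 2.7e-12). All 4 replicates of both genes moved from near 0 by more than any spread between them.

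Plaur, the receptor for urokinase, rose from 75.9, 52.3, 30.6 and 24.6 to 2840.5, 2707, 2883 and 2714 (log2 fold change 6.03, SE 0.24, adjusted p = 1.7e-18). Its 2 h libraries were nearly level while the 0 h libraries of replicates 1 and 2 were above those of 3 and 4. Pla2g7, the secreted acetylhydrolase of platelet-activating factor, had the same order at 0 h, with 35.9, 34.6, 9.67 and 1.89, and reached 838, 876, 979 and 1009.6 at 2 h. Nppb, the precursor of B-type natriuretic peptide, held 24.8, 14.9, 9.67 and 9.44 and then 918, 862, 793 and 767 (log2 fold change 5.83, SE 0.22, adjusted p = 4.5e-19). Ptgs2, the inducible cyclooxygenase, went from 5.52, 2.72, 3.22 and 1.89 to 138, 144, 181 and 208. Across these genes the spread at 2 h was small against the step from 0 h. Ptprn, a tyrosine-phosphatase-like protein of secretory granules, averaged 11.5 ± 1.41 to 462 ± 62.1, Trpv3, a cation channel of keratinocytes, 9.92 ± 6.73 to 312 ± 51.9, and Sbsn, suprabasin of stratified epithelia, 1.29 ± 0.992 to 101 ± 13.3.

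**Figure D2:**
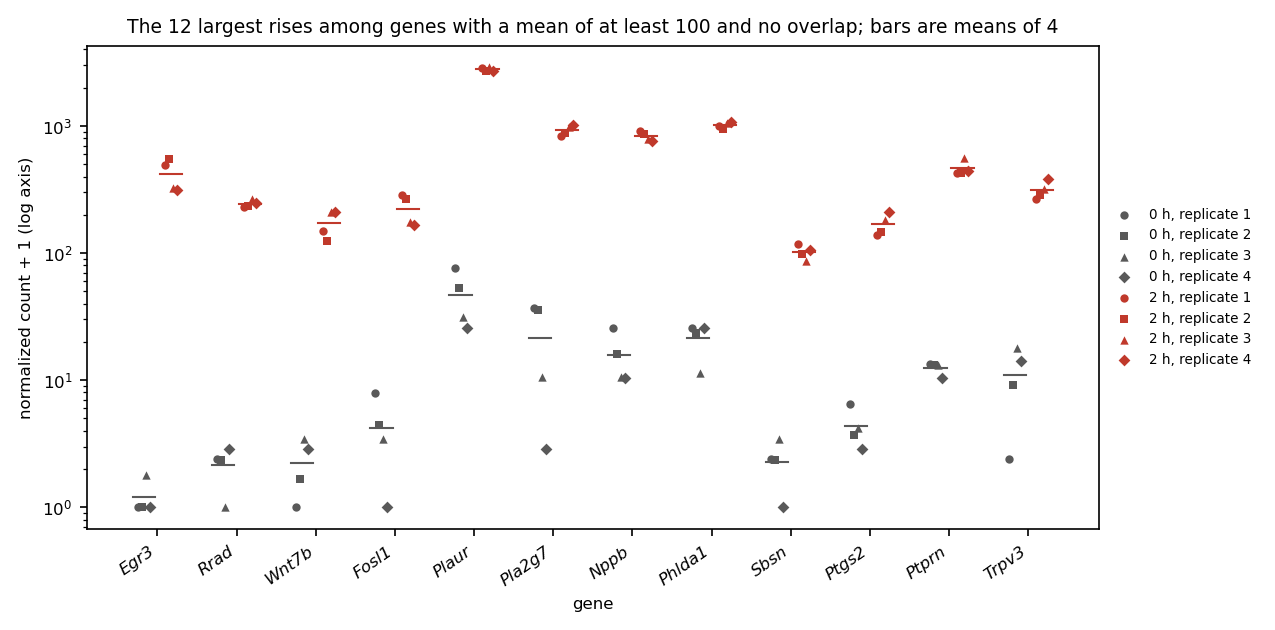
Normalized counts plus 1 on a log axis for the 12 largest rises among genes with a mean of at least 100 at 2 h and, by choice, no overlap between times, with 1 symbol per replicate, 0 h in gray, 2 h in red and bars at the mean of 4. Plaur reaches the highest counts, 2707 to 2883 at 2 h.

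Immediate-early transcription regulators had the highest median of the lists, 1.66. Of 33 tested, 22 were called higher at 2-fold, 1 lower and 10 neither, beside 5.86% higher among all genes, and 13 were 4-fold higher. The AP-1 subunits Fosl1 (3.18 ± 2.86 to 222 ± 61.4), Fosl2 (18.9 ± 4.79 to 515 ± 10.1), Fosb (6.03 ± 3.65 to 60.9 ± 6.25), Jun (11.2 ± 6.13 to 107 ± 9.996), Fos (49.2 ± 10.51 to 168 ± 3.97), Junb (69.95 ± 10.8 to 194 ± 18.98) and Jund (61.5 ± 9.45 to 125 ± 14.9) all rose, with log2 fold changes of 6.04, 4.73, 3.26, 3.33, 1.77, 1.47 and 1.02. FOSL1 and FOSL2 are the AP-1 subunits known to follow FOS after growth factor stimulation, and their change was larger than that of Fos here. Fosl2 was even between replicates, with 24.8, 15.6, 14.5 and 20.8 at 0 h and 508, 508, 516 and 529 at 2 h. Among the EGR factors, Egr1 rose from a mean of 90.6 ± 17.1 to 2191 ± 354 (log2 fold change 4.58, SE 0.40, adjusted p = 1.5e-10), and Egr2 from 2 reads in all to 54.03, 46.8, 45.7 and 39.4 normalized counts (ratio 91.5, counting interval 24.99 to 760.4). Nab2 (63 ± 2.34 to 1408 ± 122) and Nab1 (67.3 ± 3.58 to 1071 ± 55.3), the corepressors that bind EGR proteins, rose with them. The small MAF proteins MAFF and MAFK dimerise with other leucine zipper factors, and their genes rose by 4.22 and 1.51. Myc averaged 124 ± 83.04 to 512 ± 176 (log2 fold change 2.23, SE 0.32, adjusted p = 1.5e-06). Not all immediate-early genes were high at 2 h. Ier2 (628 ± 159 to 609 ± 44.2, log2 fold change -0.01, SE 0.15, adjusted p = 0.96), Atf3 (45.4 ± 8.72 to 39.3 ± 28.1) and Nr4a2 (7.56 ± 2.34 to 9.33 ± 2.97) were not called, and Ier5l was called lower (56.3 ± 6.57 to 20.7 ± 3.83, log2 fold change -1.41, SE 0.36, adjusted p = 0.0027). Members named here and below beyond the largest changes of each list were chosen after their values were seen.

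ERK feedback genes had the next highest median, 1.52. Of 26 tested, 14 were called higher (53.8%, beside 5.86% of all genes), 1 lower and 11 neither. The Dusp genes encode dual-specificity phosphatases that remove phosphate from MAP kinases. Dusp5, which acts on nuclear ERK, held 33.1, 21.1, 15.3 and 18.9 at 0 h and 881, 889, 501 and 514 at 2 h (log2 fold change 4.92, SE 0.23, adjusted p = 7.4e-17). Its 2 h level in replicates 1 and 2 was above that in 3 and 4, and no library overlapped between times. Dusp4 went from 22.1, 25.1, 3.22 and 9.44 to 245, 271, 338 and 348. Dusp2 went from 0, 0.679, 3.22 and 1.89 to 54.03, 46.8, 25.8 and 20.5. Over the whole Dusp family, found by its symbol after values were seen, 9 of 20 tested genes were called higher and none lower, those 9 being Dusp5, Dusp4, Dusp2, Dusp6, Dusp8, Dusp16, Dusp1, Dusp14 and Dusp18. Errfi1, an inhibitor of EGF receptors, averaged 172 ± 26.3 to 2118 ± 656 (log2 fold change 3.58, SE 0.19, adjusted p = 1.1e-15), and Phlda1 rose from 24.8, 22.4, 10.48 and 24.6 to 1002, 951, 1047 and 1078. The Sprouty genes Spry4 and Spry2, whose products block RAS activation, were called higher (266 ± 258 to 1239 ± 99.8 and 565 ± 40.2 to 1736 ± 61). The ETS factors Etv5 and Etv4, also known as ERK targets, were not called. Etv5 averaged 2075 ± 129 to 1890.3 ± 394 (log2 fold change -0.16, SE 0.14, adjusted p = 0.42) and Etv4 955 ± 685 to 1159 ± 324 (log2 fold change 0.59, SE 0.31, adjusted p = 0.14). Lrig1, which lowers EGF receptor levels, was called lower (319 ± 47.8 to 145 ± 43.2), and Il17rd, an inhibitor of FGF signalling, had a log2 fold change of -0.99, just short of that call.

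Ligands and transducers were fewer among the rises. Hbegf, an EGF family ligand, went from 84.2, 98.5, 81.4 and 75.5 to 1206, 1219, 1537 and 1475 (log2 fold change 3.98, SE 0.22, adjusted p = 4.0e-15), Nrg1, a ligand of ERBB receptors, from a mean of 14.6 ± 6.75 to 85.5 ± 13.8, and the receptor gene Erbb3 from 318 ± 41.8 to 1074 ± 159. These were 3 of the 7 EGF family genes tested (42.9%, beside 5.86% of all genes). Of 9 FGF ligands and receptors, Fgfbp1 (55.5 ± 30.6 to 281 ± 154), Fgfr3 (1.46 ± 1.06 to 9.11 ± 4.83) and Fgf10 (61.4 ± 12.8 to 134 ± 46.02) were called higher. Fgf4, the FGF that ES cells make themselves, was called lower, from 1589, 1523, 2076 and 2057 to 869, 879, 639 and 684 (log2 fold change -1.24, SE 0.29, adjusted p = 9.6e-04). Every 2 h library lay below every 0 h library. Of the FGF list 33.3% was called higher and 11.1% lower, beside 5.86% and 4.18% of all genes. Of 14 genes for small GTPases and RGS proteins 5 rose, Arc among them, whose product is a postsynaptic protein in neurons and which held 121, 153, 158 and 185 and then 2182, 2153, 1773 and 1773. Of 15 CREB targets 5 rose, and Nr4a1, an orphan nuclear receptor, went from 315, 292, 311 and 327 to 1311, 1286, 959 and 916. Gem, with no read at 0 h and 15.6, 9.81, 23.4 and 14.8 at 2 h, was at least 20.02-fold higher. The shares called higher were 35.7% of the GTPase and RGS list and 33.3% of the CREB list, beside 5.86% of all genes.

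Cytoskeletal targets of SRF and MRTF rose by less, and broadly. Of 30 tested, 13 were called higher at 2-fold (43.3%, beside 5.86% of all genes) and none lower. The list median was 0.95, and 28 members had a log2 fold change above 0, the others being Lima1 and Mical2. Fhl2, a LIM-domain coactivator, went from 4.14, 2.04, 3.22 and 9.44 to 58.2, 66.4, 119.6 and 115 (log2 fold change 4.08, SE 0.39, adjusted p = 1.1e-09). Zyx, the focal adhesion protein zyxin, went from 139, 133, 54 and 51 to 478, 419, 358 and 347. Its libraries split by replicate set at 0 h, and every 2 h library lay above them. Among abundant members Actb averaged 8581 ± 604 to 18369 ± 394 (log2 fold change 1.10, SE 0.14, adjusted p = 4.0e-07), Flna 4024 ± 613 to 8468 ± 462, Vcl 532 ± 100.1 to 1719 ± 136 and Wdr1 1358 ± 278 to 4494 ± 448. Actb has many near-identical copies, between which the counting may have divided reads. Srf, in the immediate-early list, rose from a mean of 266 ± 9.10 to 760.2 ± 126 (log2 fold change 1.49, SE 0.12, adjusted p = 3.9e-11).

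SRF binds the CArG box, a run of A and T between CC and GG. In the RefSeq promoters of GRCm38.p6, 250 bases before to 50 after the start, 25 of the 30 cytoskeletal genes had an entry (that nearest to the annotated 5′ end was used), and 8 of these (32%) held a CArG box on either strand: Acta1, Actg1, Cnn2, Fhl1, Fhl2, Lima1, Myl9 and Vcl. Among all 10660 tested genes with an entry, 1.29% held one. The list was made up of known SRF targets, so a higher share was likely from the choice and is no result about the 2 h response. Of the 8, Fhl2, Myl9, Cnn2 and Vcl were called higher, while Lima1 was below 0 (log2 fold change -0.78, SE 0.08, adjusted p = 1.4e-09). In the 22 ERK feedback promoters the box was found in Dusp5, and the cyclic AMP response element TGACGTCA in Dusp1, Dusp8 and Epha2, against 3.27% of all entries. The entries covered 68.5% of the 4-fold higher genes and 75.5% of the 4-fold lower genes, too few for a share of motifs in those classes. A match is a run of letters and not a shown site. Windows of 80 bases are shown to compare the CArG boxes, in capitals, of 5 genes that rose, with the TCF letters CTTTGAT (2.45% of all entries) of Sp5, which fell. Dusp5 (chr19:53529033-53529112, plus strand) and Srf (chr17:46556190-46556269, minus strand) held 2 boxes each, starting 82 and 72, and 82 and 62, bases before the start. Fhl2 (chr1:43196813-43196892, minus strand), Myl9 (chr2:156775268-156775347, plus strand) and Cnn2 (chr10:79988509-79988588, plus strand) held 1 each, and Sp5 is shown at chr2:70474782-70474861, plus strand.
Dusp5: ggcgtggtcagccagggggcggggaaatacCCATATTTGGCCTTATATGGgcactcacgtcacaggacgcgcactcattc
Srf: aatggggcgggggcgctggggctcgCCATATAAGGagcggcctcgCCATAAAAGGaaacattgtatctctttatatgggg
Fhl2: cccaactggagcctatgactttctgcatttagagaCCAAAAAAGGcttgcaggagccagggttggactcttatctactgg
Myl9: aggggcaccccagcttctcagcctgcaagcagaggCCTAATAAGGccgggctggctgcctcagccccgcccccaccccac
Cnn2: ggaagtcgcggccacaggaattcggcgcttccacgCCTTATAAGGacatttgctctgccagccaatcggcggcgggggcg
Sp5: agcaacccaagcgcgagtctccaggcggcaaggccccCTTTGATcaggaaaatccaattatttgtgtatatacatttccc

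Of 24 targets of YAP and TEAD, 8 were called higher (33.3%, beside 5.86% of all genes) and none lower (median 0.78). Ctgf and Cyr61, which encode secreted matricellular proteins that are the standard YAP readouts, went from 67.6, 68.6, 121 and 121 to 749, 675, 741 and 699 and from 81.4, 80.2, 109 and 90.7 to 581, 559, 503 and 506 (log2 fold change 2.96, SE 0.23, adjusted p = 1.1e-11, and log2 fold change 2.57, SE 0.20, adjusted p = 2.0e-11). Both are also SRF targets. F3, tissue factor, averaged 23.4 ± 9.12 to 237 ± 16.9. Amotl2 (769.8 ± 217 to 970.0 ± 49.3) and Ankrd1 (0 ± 0 to 0.703 ± 0.835) were not called. Of 16 genes of plasminogen activation and matrix remodelling 9 rose (56.25%, beside 5.86% of all genes) and none was called lower. With Plaur rose Thbs1, thrombospondin (3.34 ± 1.56 to 122 ± 22.1), and the metalloproteinase inhibitors Timp1 (624, 519, 646 and 599 to 2235, 2277, 2249.8 and 2117) and Timp3 (6.83 ± 3.42 to 61.7 ± 5.38). The activators Plau (1.87 ± 0.807 to 5.83 ± 1.17) and Plat (7.10 ± 4.42 to 14.5 ± 2.23) were called higher at low counts. Fn1, fibronectin, averaged 12637 ± 5024 to 12311 ± 4029 (log2 fold change 0.00, SE 0.24, adjusted p = 1).

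Of 18 NF-kB and inflammatory genes 9 were called higher (50%, beside 5.86% of all genes) and none lower. Beside Ptgs2, the chemokine genes Cxcl16 (2.64 ± 2.17 to 40.7 ± 7.70) and Ccl20 (no read at 0 h, 25.97, 17.4, 5.86 and 7.39 at 2 h, at least 18.8-fold) rose. Tnfaip3, an inhibitor of NF-kB signalling, went from 6.90, 8.15, 8.06 and 9.44 to 54.03, 36.99, 56.3 and 60.7. The subunit genes Rel (55.2 ± 24.8 to 202 ± 28.97) and Nfkb2 (138 ± 16.7 to 503 ± 6.09) rose, but Nfkbia (214 ± 7.29 to 250.81 ± 67.8, log2 fold change 0.19, SE 0.26, adjusted p = 0.61) and Icam1 (412 ± 149.5 to 417 ± 80.9), common early targets, were not called. Tnf and Cxcl10 passed with means of 2.702 and 2.56 at 2 h. With a minimum mean of 50 in a group the list median was 0.83 in place of 1.04.

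Other signalling lists had members in both directions. In the BMP, Nodal, LIF and Notch lists 30.8%, 16.7%, 13.3% and 14.3% were called higher, beside 5.86% of all genes. Called lower were 23.1%, 11.1%, 6.67% and 28.6%, beside 4.18%. Of 13 BMP and SMAD targets, Id1 (95.2, 55.03, 27.4 and 30.2 to 436, 433, 269.6 and 268), Id2 (23.7 ± 9.68 to 168 ± 35.1), Msx1 (3.95 ± 2.44 to 23.9 ± 6.62) and Nog, which encodes the BMP antagonist noggin (0.716 ± 0.567 to 2.68 ± 1.62), were called higher, and Smad9 (11.9 ± 0.848 to 3.33 ± 0.777), Smad6 and Id4 lower. ID proteins hold bHLH factors off DNA. Of 18 Nodal and activin genes Skil, a SMAD corepressor, rose from 181, 243, 209.6 and 200.2 to 1415, 1411, 1232 and 1206 (log2 fold change 2.66, SE 0.13, adjusted p = 2.1e-16), as did Furin, while Lefty1 (12.5 ± 7.45 to 3.74 ± 1.87) and Eomes were called lower. Of 15 genes of the LIF and STAT3 pathway Cish, a feedback inhibitor of STAT5 signalling, rose from 12.4, 14.3, 12.9 and 13.2 to 64.4, 60.4, 86.8 and 77.2, Jak1 averaged 588 ± 97.4 to 1755 ± 254, and Osmr, the oncostatin M receptor, was called lower (5.83 ± 3.33 to 2.91 ± 2.73). LIF was in both media. Of 14 Notch genes Lfng, which modifies Notch (4.30 ± 2.02 to 29.9 ± 11.9), and Hey2 were called higher, and the ligand genes Jag1 (195 ± 63.1 to 80.9 ± 22.4), Jag2 and Dll3 and the bHLH gene Hes6 lower.

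Wnt and beta-catenin targets were the list with the lowest median, -1.32. The SD of this median between replicates was 0.615, against 0.112 for immediate-early regulators. Over the alternative settings it ran from -0.94 (without 2 h replicate 4) to -1.52 (replicates 3 and 4 alone). Of 19 tested, 10 were called lower, 1 higher and 8 neither, beside 4.18% lower among all genes, and 4 were 4-fold lower. Nkx1-2, a homeobox gene of the early embryo, had the largest fall of all tested genes, from 605, 671, 314 and 309.8 to 44.7, 34.7, 21.1 and 13.95 (log2 fold change -4.04, SE 0.51, adjusted p = 1.9e-07). Fzd10, a Wnt receptor, went from 465, 449, 636 and 678 to 64.4, 58.1, 98.5 and 91.9. Sp5, a zinc finger repressor and direct beta-catenin target, went from 199, 202, 143 and 132 to 32.2, 30.2, 21.1 and 18.9 (log2 fold change -2.69, SE 0.37, adjusted p = 8.5e-07). In each of the 3 genes replicates 1 and 2 lay apart from 3 and 4 at both times, and the step was similar in both sets. Ascl2, Tnfrsf19, Rnf43, Lef1, Cdx1, Nkd1 and Dkk1 were the other genes called lower. Axin2, the usual readout of the pathway, averaged 651 ± 150.3 to 337 ± 11.4 (log2 fold change -0.92, SE 0.18, adjusted p = 9.9e-05), and Notum 436 ± 58.5 to 224 ± 24.6, both less than 2-fold lower (adjusted p = 0.009 for Notum). Tcf7 (606 ± 132 to 853 ± 94.8) and Znrf3 (149 ± 11.8 to 162 ± 4.10) were not called. Cdx2 was the member called higher, with log2 fold changes of -0.31 in replicates 1 and 2 and 2.68 in 3 and 4.

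Wnt ligand genes were called in both directions. Of 25 Wnt ligands, receptors and antagonists 6 were called higher (24%) and 4 lower (16%), beside 5.86% and 4.18% of all genes. Among the 8 Wnt genes tested 5 were called higher, Wnt7b, Wnt4, Wnt6, Wnt5a and Wnt9a, and Wnt5b lower (105 ± 67.2 to 30.1 ± 14.3). Wnt7b went from 0, 0.679, 2.42 and 1.89 to 149, 122, 209 and 208 (log2 fold change 6.39, SE 0.33, adjusted p = 1.1e-15) and averaged 198 at 4 h. Wnt4 rose from 2 reads in all to 10.4, 8.30, 8.21 and 13.1 normalized counts (ratio 20.02, counting interval 5.22 to 170.5), and Wnt6 from 4.14, 5.44, 4.03 and 3.78 to 31.2, 30.2, 24.6 and 26.3. Wnt5a (1.603 ± 1.17 to 8.55 ± 2.01) and Wnt9a (1.82 ± 1.67 to 5.82 ± 1.75) were low at both times.

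**Figure D3:**
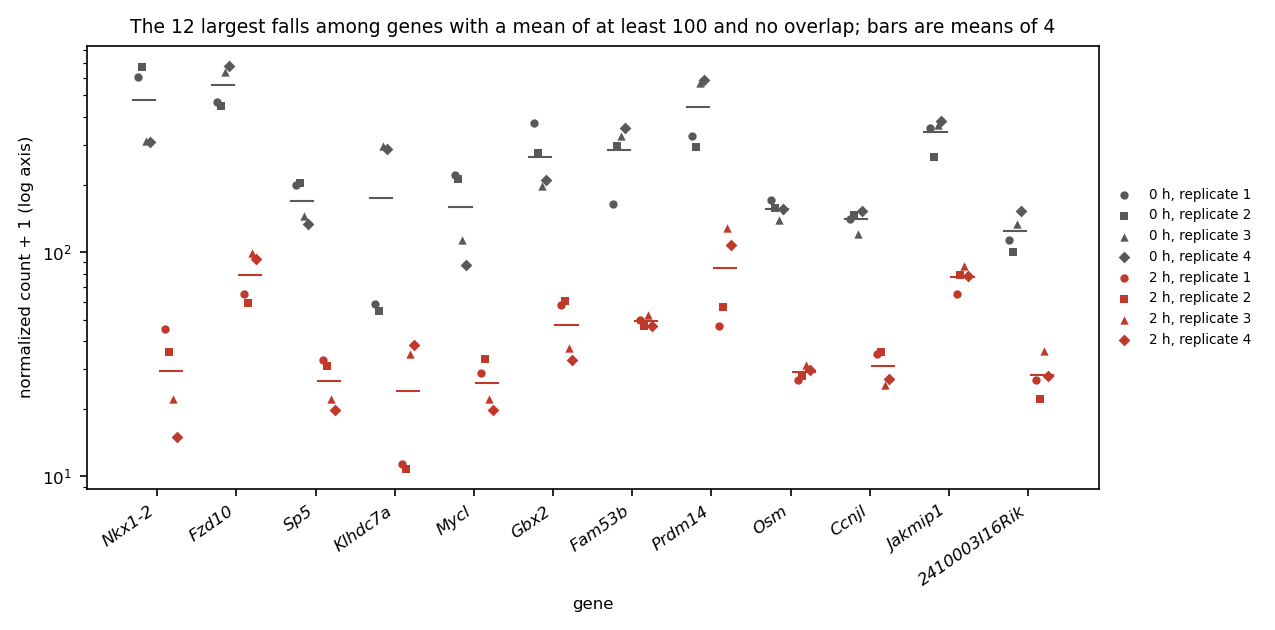
Normalized counts plus 1 on a log axis for the 12 largest falls among genes with a mean of at least 100 at 0 h and, by choice, no overlap between times, with 1 symbol per replicate, 0 h in gray, 2 h in red and bars at the mean of 4. For Klhdc7a replicates 1 and 2 (57.97 and 53.7 at 0 h) lie far below 3 and 4 (297 and 287).

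Of the 12 largest falls among genes with a mean of at least 100 at 0 h and no overlap, 9 were not in the Wnt target list. Gbx2, a homeobox factor that supports self-renewal under LIF, went from 375, 276, 197 and 209.7 to 57.1, 59.6, 36.3 and 32.01 (log2 fold change -2.49, SE 0.25, adjusted p = 2.3e-09). Prdm14, a repressor of FGF and lineage genes in naive cells, went from 329.9, 292, 568 and 586 to 45.7, 55.9, 128 and 107 (log2 fold change -2.44, SE 0.36, adjusted p = 3.0e-06). Mycl, a MYC family member, went from 221, 212, 112 and 86.9 to 28.1, 32.5, 21.1 and 18.9. Mycl and Myc thus moved in opposite directions, and of the 13 genes of the MYC, MAX and MXD network Mxd1 (48.2 ± 10.1 to 123 ± 11.4) and Mxd4 (8.62 ± 4.74 to 21.1 ± 3.19), antagonists of MYC, were also called higher. Osm, the cytokine oncostatin M, held 169.8, 156, 139 and 155 and then 25.97, 27.2, 30.5 and 28.7. Fam53b (286 ± 85.8 to 48.1 ± 2.67), Ccnjl (139 ± 13.96 to 29.97 ± 5.28), Jakmip1 (343 ± 53.01 to 76.4 ± 8.81), Klhdc7a (174 ± 137 to 22.99 ± 14.96) and 2410003I16Rik (124 ± 22.8 to 27.3 ± 5.82) made up the rest. With the replicates of each set averaged Klhdc7a did not pass (adjusted p = 0.10).

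Pluripotency factors split. Of 24 naive and core factors 5 were called lower (Gbx2, Prdm14, Klf2, Fgf4 and Tcl1), 2 higher (Klf5 among them) and 17 neither, with a median of -0.38. These shares were 20.8% lower and 8.33% higher, beside 4.18% and 5.86% of all genes. Klf2, which MEK inhibition is known to sustain, went from 751, 648, 733 and 674 to 155, 177, 229.8 and 219.97 (log2 fold change -1.86, SE 0.18, adjusted p = 8.2e-10), and its relative Klf5 from 1516, 1561, 1372 and 1541 to 3829.6, 3920.3, 5211 and 5558 (log2 fold change 1.61, SE 0.11, adjusted p = 2.6e-13). The libraries did not overlap in either gene. Nanog was lower by less than 2-fold, from 5002, 4656, 6803 and 7037 to 3164, 3325, 3371 and 3279 (log2 fold change -0.82, SE 0.22, adjusted p = 0.0044), as was Esrrb (log2 fold change -0.80, SE 0.16, adjusted p = 2.5e-04). For Nanog the limma fit with the replicates of each set averaged gave an adjusted p of 0.13, which did not pass the FDR. Of 21 formative epiblast genes 6 were called higher (28.6%) and Sox12 lower (4.76%), beside 5.86% and 4.18% of all genes. Sox4 averaged 9.62 ± 2.97 to 64.7 ± 18.9, Pou3f1 (OCT6) 10.9 ± 4.06 to 33.5 ± 10.04, Hmga2 307 ± 26.7 to 862 ± 107, Sox3 5.69 ± 4.17 to 21.9 ± 15.4 and Dnmt3a 226 ± 95.7 to 436 ± 10.9, while Otx2 (25.8 ± 2.29 to 16.1 ± 5.65) and Dnmt3b (681 ± 151 to 628 ± 78.4) were not called. Dnmt3l held 1284, 1178, 139 and 136 at 0 h and 2816, 2849.8, 469 and 376 at 2 h, with a gap between replicate sets wider than the step in time.

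Of 30 PrE genes 8 were called higher and Hnf4a lower (6.60 ± 2.65 to 1.93 ± 1.80), with a median of 0.23. These were 26.7% and 3.33%, beside 5.86% and 4.18% of all genes. The largest change was in Krt18, a keratin of simple epithelia, from 27.6, 29.2, 24.2 and 45.3 to 623, 636, 589 and 568 (log2 fold change 4.25, SE 0.15, adjusted p = 1.8e-19), followed by Gata6 and by Krt8, the partner of KRT18 (132, 116, 151 and 132 to 488, 481, 750.3 and 689). Pdgfra, the receptor that marks PrE, went from 5.52, 7.47, 7.25 and 7.55 to 17.7, 18.1, 22.3 and 23.8 (log2 fold change 1.43, SE 0.14, adjusted p = 1.2e-09). Lrp2 (megalin) averaged 45.1 ± 23.5 to 111 ± 64.9. Krt8 and Krt18 are not specific to PrE. Sparc (4252 ± 949 to 6258 ± 1280.1), Lamc1 (5954 ± 2092 to 6967 ± 1796) and Col4a1 (46.05 ± 11.3 to 51.96 ± 3.63), which build basement membrane, were not called. In the longer PrE list, defined from single cells of blastocysts, 40 of 579 tested genes (6.91%) were called higher and 16 (2.76%) lower, and in the epiblast list of the same source 11 of 217 (5.07%) moved in each direction, near the 5.86% and 4.18% of all genes. Factors of other lineages also moved: Snai3 (34.5, 25.8, 12.9 and 13.2 to 532, 528, 544 and 516) and Twist1 (12.4, 12.2, 15.3 and 11.3 to 138, 164, 177 and 193), both known from mesenchymal transition, were 4-fold higher, as was Pou3f2 (10.8 ± 8.11 to 77.7 ± 36.9), a neural POU factor. Of 13 mesendoderm and EMT factors Snai2 was also called higher, and Snai1 (15.95 ± 4.54 to 6.57 ± 0.666) and Eomes (263 ± 85.9 to 113 ± 32.2) lower. Of 12 trophoblast factors 4 were called higher (Gata3, Hand1, Tead4 and Cdx2) and 4 lower (Ascl2, Elf3, Tfap2c and Eomes), and of 5 neural factors Sox1 and Olig2 were called lower. Of 4 genes in a longer fibroblast list Pdgfrb was called lower (48.6 ± 33.7 to 18.8 ± 11.9), with libraries split by replicate set. The shares called higher were 23.1% of mesendoderm and EMT, 33.3% of trophoblast and 20% of neural factors, beside 5.86% of all genes. The shares called lower were 15.4%, 33.3% and 40%, and 25% of the fibroblast list, beside 4.18%.

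Some symbol families and single genes known from epithelia were looked at after the values were seen, so their counts describe a choice. Of 5 tested kallikrein genes (Klk), serine proteases of which several act in skin shedding, 4 were 4-fold higher, beside 2.00% of all genes: Klk7 with 0, 0.679, 0 and 0 and 54.03, 57.4, 124 and 122 (1 read at 0 h, ratio 349, counting interval 62.2 to 13803), Klk9 (no read at 0 h, 16.6, 7.55, 17.6 and 23.8 at 2 h), Klk10 (21.5 ± 4.47 to 122 ± 11.5) and Klk11 (13.2 ± 4.47 to 63.9 ± 16.8). Of 9 keratin genes Krt8, Krt18 and Krt19 (12.2 ± 5.09 to 166 ± 48.4), which are keratins of simple epithelia, and Krt17 (4.93 ± 4.65 to 19.6 ± 9.10) were 4-fold higher. Lor, loricrin of the cornified envelope, had 1 read at 0 h and 50.9, 63.4, 59.8 and 46.8 normalized counts at 2 h (ratio 219, counting interval 38.99 to 8699). The single genes Dmkn (2.96 ± 1.00 to 72.4 ± 15.2), Krtdap (9.52 ± 5.49 to 95.9 ± 58.2), Lgals7 (4.29 ± 1.88 to 41.9 ± 15.7), Sfn, which encodes 14-3-3 sigma (501, 431, 334 and 383 to 3118, 3036, 2788 and 2592), and Perp, a desmosomal protein (127, 88.3, 90.3 and 94.4 to 589, 564, 492 and 472), were picked because they rose. Krt7 (16.9 ± 15.9 to 14.7 ± 13.3) was not called.

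Lists of basic metabolism and growth moved little. No gene was called at 2-fold among 49 for ribosome biogenesis, 79 cytosolic ribosomal proteins, 60 nuclear genes of oxidative phosphorylation, 28 of DNA replication, 22 of mitosis, 25 of cholesterol synthesis and uptake, 19 ER chaperones and 16 germline and early-embryo genes. Their medians ran from -0.28 for cholesterol synthesis to 0.26 for mitosis, where Anln averaged 2074 ± 391.82 to 4015 ± 625 (log2 fold change 0.96, SE 0.11, adjusted p = 5.5e-08). Of 18 genes of fatty acid metabolism 3 were called lower and none higher. Lpin1, a phosphatidate phosphatase, went from 424, 495, 724 and 839 to 119, 119, 149 and 172, and Abcg1 (167 ± 24.9 to 55.4 ± 8.29) and Mylip (182 ± 28.1 to 72.5 ± 4.05), targets of the liver X receptors, were called lower. Of 26 glycolysis genes Pfkfb3 (59.3 ± 9.58 to 178 ± 16.8), Slc2a1 (813 ± 158 to 1727 ± 294), Pfkfb4 and Hk2 (2303 ± 90.5 to 4679 ± 225) were called higher and none lower. The share higher was 15.4% of the glycolysis list, beside 5.86% of all genes. The share lower was 16.7% of the fatty acid list, beside 4.18% of all genes.

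Of 19 NRF2 oxidative stress genes Hmox1, heme oxygenase, rose from 539.7, 469, 373 and 457 to 1565, 1545, 1024 and 988, and Srxn1 was called higher (10.53% of the list, beside 5.86% of all genes). Of 16 hypoxia genes Bhlhe40, Pfkfb3, Slc2a1 and Ankrd37 were called higher (25%) and Bnip3 and Car12 lower (12.5%, beside 4.18%). Of 26 genes of the ATF4 response Cebpb was called higher (13.2 ± 7.70 to 54.4 ± 7.31) and Ddit4 (201 ± 47.5 to 81.6 ± 27.7) and Trib3 (616 ± 185 to 298 ± 84.4) lower, the call of Trib3 not passing with replicate sets averaged (adjusted p = 0.14), and 18 of the 26 differed in response between the replicate sets. The ATF4 shares were 3.85% higher and 7.69% lower, beside 5.86% and 4.18% of all genes. Of 17 heat shock genes Hspa1b, which has a near-identical copy, was called higher (5.88%, near the share of all genes). Of 13 zinc genes Slc39a14 (306 ± 238 to 573 ± 109) and Slc39a8 were called higher (15.4%) and the exporter gene Slc30a2 (616 ± 41.1 to 177 ± 20.4) lower, and the metallothioneins Mt1 (2451 ± 271 to 2048 ± 453) and Mt2 were not called.

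Lists of the cell cycle, clock and hormone response were mixed. Of 21 p53 targets 4 were called higher (19.05%) and 5 lower (23.8%), beside 5.86% and 4.18% of all genes. Cdkn1a, which encodes the cell cycle inhibitor p21, went from 1250.5, 1295, 1719 and 1658 to 586, 563, 719.9 and 698 (log2 fold change -1.198, SE 0.23, adjusted p = 1.1e-04), and Perp, Plk3 (91.4 ± 14.7 to 329.9 ± 35.3), Pmaip1 (219 ± 96.5 to 626 ± 105) and Plk2 rose. Cdkn1a was the member called among 23 G1 regulators (4.35% lower, near the 4.18% of all genes). Of 17 clock genes Bhlhe40 rose (60.7, 61.1, 85.4 and 94.4 to 293, 282, 503 and 519), and the PAR bZIP factors Dbp (22.3 ± 5.22 to 7.24 ± 2.76), Tef (304 ± 32.98 to 144 ± 10.6) and Hlf (15.9 ± 1.49 to 4.42 ± 3.34) were called lower. Of 11 steroid response genes Dusp1 was called higher (9.09%) and Tsc22d3 and Ddit4 lower (18.2%). Tsc22d3, a glucocorticoid-induced gene, went from 33.1, 33.3, 20.96 and 32.1 to 4.16, 1.51, 9.38 and 5.75. Of 20 snoRNA host and long noncoding genes Malat1 (3070.2 ± 854 to 6154 ± 619) and H19, at low counts (0.472 ± 0.944 to 1.96 ± 1.45), were called higher. Of 26 Polycomb and DNA methylation genes Mtf2, Dnmt3a and Dnmt3l were called higher. Of 15 retinoid genes 1 was called higher and 2 lower. The shares called higher were 5.88% of clock, 6.67% of retinoid, 10% of noncoding and 11.54% of Polycomb genes, beside 5.86% of all genes. Called lower were 17.65% of clock and 13.33% of retinoid genes and no noncoding or Polycomb gene, beside 4.18% of all genes. Cyp26a1, which degrades retinoic acid, had no read at 0 h and 8.31, 9.06, 14.1 and 9.85 at 2 h, at least 13.3-fold higher, while Nr2f2 (6.11 ± 0.681 to 1.45 ± 0.705) was called lower.

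The called protein-coding genes had shorter median spans than all tested genes. The median span in the GENCODE M21 annotation was 15120 bases for the 280 genes 4-fold higher and 14832 for the 47 genes 4-fold lower, against 24226 for all 13035 tested. The median number of exons was 6 and 5, against 10, and 35% and 34.04% spanned under 10 kb, against 23.9%. The immediate-early list had a median span of 6714 bases and 4 exons. At 2-fold the spans were 21221 and 18374 bases. The higher genes started low, with a median of 8.62 normalized counts at 0 h against 211 over all genes, and the lower genes with 40.03. Level and span were not separated here.

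The response differed between the replicate sets for 795 genes (5.22%, limma interaction, FDR below 0.1), with a log2 fold change that was higher in replicates 3 and 4 for 422 and lower for 373. Across all tested genes the log2 fold changes of both sets correlated with r = 0.798, a description over genes that share libraries. All 305 genes 4-fold higher and all 53 genes 4-fold lower had the same direction in both sets. This follows largely from their choice, because the fold change that selected them is the mean of those in both sets. Called in each set alone, 239 genes were 4-fold higher in both, 73.8% of the 324 in replicates 1 and 2 and 69.1% of the 346 in 3 and 4. For 4-fold lower genes 27 were shared, 33.8% of 80 and 32.5% of 83. ERK feedback genes held several of the largest differences. Spry4 held 450.0, 526, 36.3 and 51 at 0 h and 1343, 1286, 1111 and 1216 at 2 h. Its response was 1.43 on the log2 scale in replicates 1 and 2 and 4.72 in 3 and 4 (adjusted p of the difference = 2.9e-18). Dusp6 held 487, 436, 69.3 and 75.5 and then 1979, 1978, 1013 and 978 (2.099 and 3.76, adjusted p = 4.6e-08). In both genes the sets were far apart at 0 h, with replicates 1 and 2 higher, and closer at 2 h. Fgf10 responded by 0.60 in replicates 1 and 2 and 1.56 in 3 and 4 (adjusted p = 4.9e-04), Nrg1 by 2.11 and 3.02 (adjusted p = 0.0036), Pmaip1 by 0.83 and 2.39 and Hnf4a by -0.46 and -2.64. Among the called genes named here whose response differed between sets, it was under 2-fold in replicates 1 and 2 for Cdx2, Dnmt3a, Fgf4, Fgf10, Hk2, Hnf4a, Pmaip1 and Slc39a14, and in 3 and 4 for Ddit4, Eomes, Hspa1b, Id4, Mtf2, Srxn1 and Trib3. Etv4 had the same form as Dusp6 (1572, 1523, 379.6 and 346, then 1509, 1361, 886 and 879). The part of the 0 h level in these differences was not tested. Among the genes named here as called, libraries of both times overlapped for Car12, Cdx2, Cxcl10, Dnmt3l, H19, Hnf4a, Jag2, Krt17, Lef1, Lefty1, Lrp2, Nog, Osmr, Pdgfrb, Plat, Plk2, Slc39a14, Slc39a8, Sox3, Tnf and Wnt5b. Cdx2, Dnmt3l, Olig2, Osmr, Pdgfrb, Slc39a8, Sox1 and Sox3 no longer passed the FDR when 1 library was left out. A fold change that fell below 2-fold in such a fit was not counted. With the replicates of each set averaged these genes and Bnip3, H19, Klhdc7a and Trib3 did not pass the FDR.

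**Figure D4:**
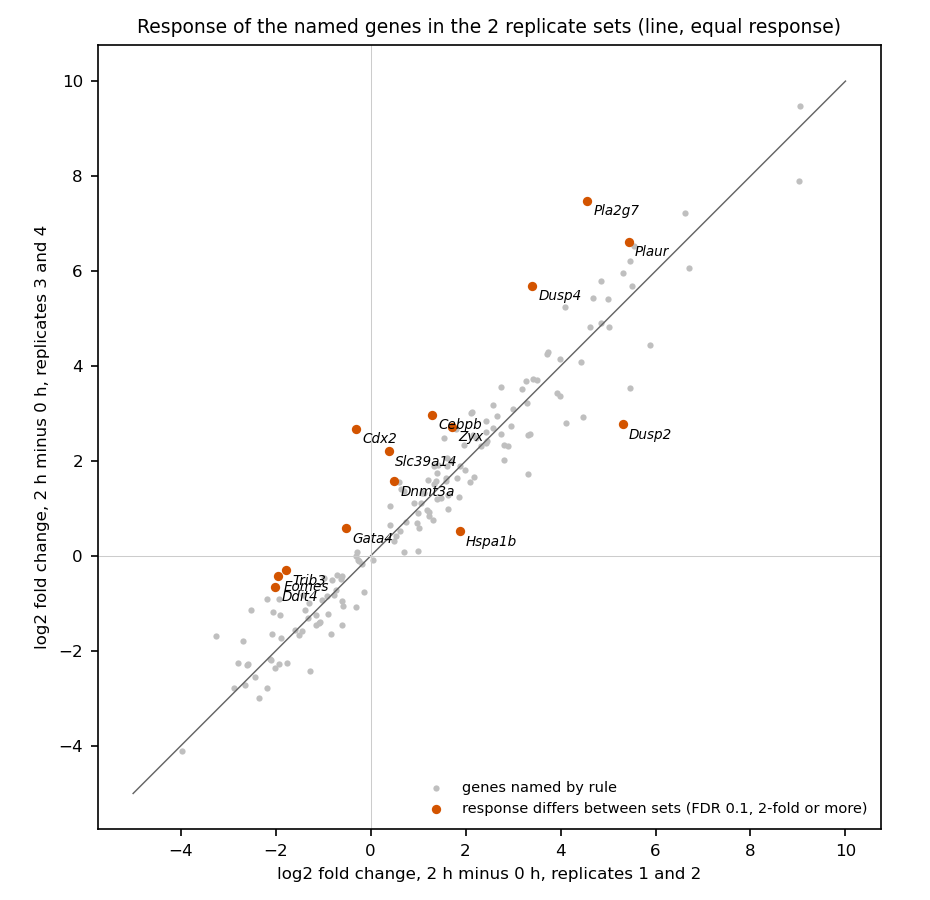
Each point is 1 gene named by rule, with its log2 fold change (2 h minus 0 h) in replicates 1 and 2 on the horizontal axis and in replicates 3 and 4 on the vertical axis; the line marks an equal response. Orange points differ between sets at FDR below 0.1 and by 2-fold or more, with Pla2g7 (4.56 and 7.49) and Dusp4 (3.40 and 5.69) above the line and Dusp2 (5.31 and 2.78) below it.

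The later time points place the 2 h values, all in the serum medium and with Dox for no more than 12 h. All these differences share the 0 h libraries. The list median of immediate-early regulators, 1.66 at 2 h, was 1.11, 0.66, 0.23, -0.15, 0.56 and 1.03 at 4, 8, 16, 24, 48 and 96 h. Egr3 averaged 419.8 at 2 h and 62.7 at 4 h, and Arc 1970.1 and 288. ERK feedback genes gave 1.01, 1.196, 0.78, 0.18, -0.31 and -0.65, NF-kB genes 1.13, 0.48, 0.20, 0.00, 0.56 and 0.88 and YAP targets 1.37, 1.27, 0.96, 0.79, 1.10 and 1.39. Some means were higher still after 2 h, with Pla2g7 at 1791 at 4 h and 2016 at 8 h, and Dusp4 at 314 and 787. Wnt targets gave -1.16, -1.21, -1.96, -2.06, -2.57 and -2.59 and stayed below 0 at every time, with Sp5 at 11.5 at 4 h and 1.55 at 8 h. Naive factors gave -0.60, -0.79, -1.21, -1.52, -2.07 and -3.41. PrE genes, with a median of 0.23 at 2 h, gave 1.23, 2.93, 4.93, 5.58, 7.48 and 7.60.

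**Figure D5:**
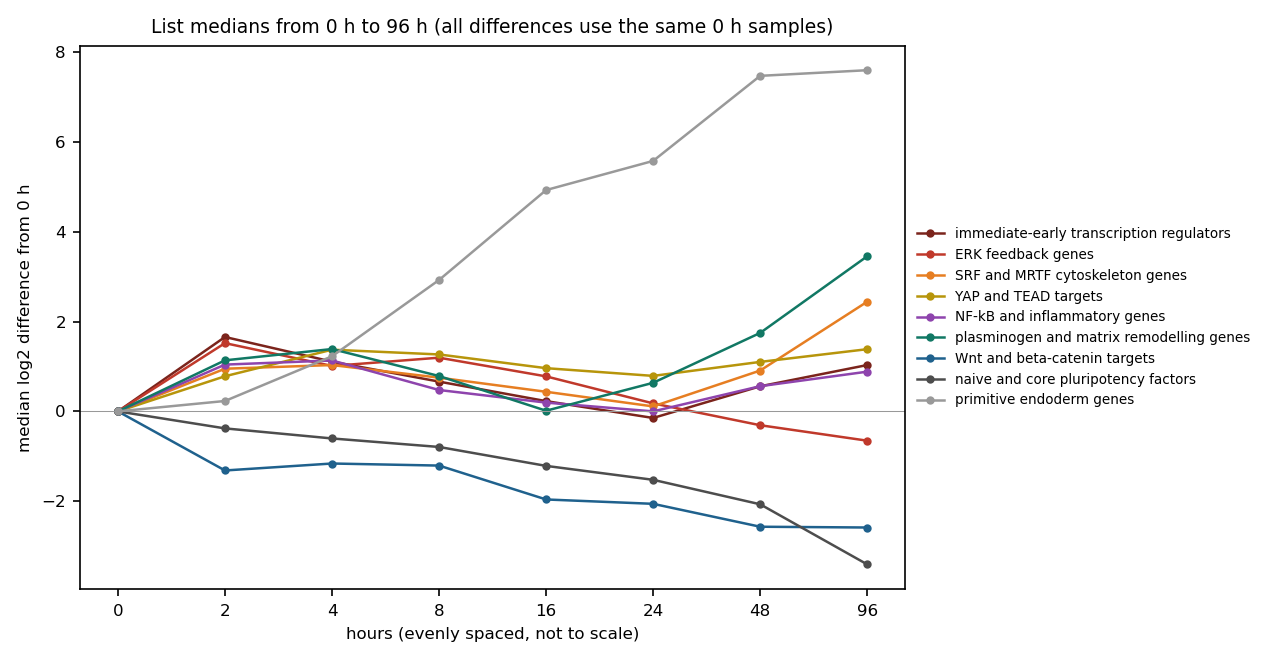
Median log2 difference from 0 h over the tested members of 9 lists (vertical axis) at each time point (horizontal axis, hours, evenly spaced and not to scale), all against the same 0 h libraries. Immediate-early and ERK feedback lists are highest at 2 h, Wnt targets lie below 0 from 2 h on, and the PrE list moves from 0.23 at 2 h to 7.60 at 96 h.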

How the data were processed

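Gene counts came from polyadenylated, strand-marked RNA libraries of 32 samples, 4 at each of 8 times. The authors trimmed reads with cutadapt 2.7, checked them with FastQC 0.11.8, aligned them to GRCm38.p6 with HISAT2 2.1.0 and counted them over GENCODE genes with featureCounts (Subread 1.6.4). Whether counting used strand is not given in the sources used here. The deposited values are log2 variance-stabilised counts, made by the authors with DESeq2. The transformation was inverted, and all values came out as whole reads within 3.8e-09. Mitochondrially encoded genes were not analysed here.

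Genes with at least 10 normalized counts in at least 4 samples were tested with limma 3.58.1 (R 4.3.3) on log2(normalized count + 1), with the deposited size factors, an intensity trend and all 32 samples in the fit, and Benjamini-Hochberg adjustment. The script was tested on simulated data. Replicates carry numbers in the labels. Deviations of same-numbered 0 h and 2 h samples correlated at 0.411 to 0.465. Those of the other number in the same set (1 and 2, or 3 and 4) gave 0.386 to 0.477. The numbers thus mark the sets and do not show a pairing within them. The main fit held time alone, without pairing, and the replicate block was an alternative. The members, lists, markers and tests were chosen with earlier results of these data known. Named were both GATA6 rows, the 12 largest rises and falls with a mean of at least 100 and no overlap, up to 4 called members per list (or 2 others where fewer were called) and the markers; further names were chosen after their values were seen. Alternatives were the pseudocount, filter, scaling, deposited values, limma-voom, 8 samples in the fit, the replicate block, the replicate sets, a threshold of 0.05 and each sample left out. Depth limits genes near 0 most, and counting intervals cover counting error only. A few genes that count in the lists are not reported here by name. Motifs were searched with Python 3.11.15.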

Additional observations from a re-analysis of the deposited data

Results flagged for a closer look

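For 9 of 316 groups of 4 libraries of a named gene, the highest or lowest library lay apart from the rest by more than Dixon's 95% critical value, 7 of them at 0 h and 2 at 2 h. Chance gives about 1 in 20. Phlda1 held 10.48 at 0 h in replicate 3, below the 22.4 to 24.8 of the other libraries. Ptprn held 9.44 at 0 h in replicate 4, below the 12.1 to 12.4 of the other libraries. Ptprn held 554 at 2 h in replicate 3, above the 424 to 445 of the other libraries. Xbp1 held 451 at 0 h in replicate 3, below the 499 to 506 of the other libraries. Perp held 127 at 0 h in replicate 1, above the 88.3 to 94.4 of the other libraries. Tsc22d3 held 20.96 at 0 h in replicate 3, below the 32.1 to 33.3 of the other libraries. H19 held 4.10 at 2 h in replicate 4, above the 1.04 to 1.51 of the other libraries. Gata4 held 39.5 at 0 h in replicate 3, above the 19.3 to 22.7 of the other libraries. Pdgfra held 5.52 at 0 h in replicate 1, below the 7.25 to 7.55 of the other libraries.

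Of the 169 genes named by the rule given with the processing, which does not take in further names of the text such as Spry4 and Dusp6, 14 had a response that differed between the replicate sets by 2-fold or more in the limma interaction test. The log2 fold changes are given for replicates 1 and 2 first, then for 3 and 4. A larger rise in replicates 3 and 4 was measured for Plaur (5.44 and 6.62, difference 1.18, adjusted p = 2.4e-06), Pla2g7 (4.56 and 7.49, difference 2.92, adjusted p = 3.5e-06), Dusp4 (3.40 and 5.69, difference 2.30, adjusted p = 3.5e-07), Zyx (1.71 and 2.72, difference 1.02, adjusted p = 8.2e-06), Cebpb (1.29 and 2.98, difference 1.69, adjusted p = 0.083), Slc39a14 (0.39 and 2.21, difference 1.82, adjusted p = 5.3e-12) and Dnmt3a (0.50 and 1.58, difference 1.08, adjusted p = 3.2e-08). A larger rise in replicates 1 and 2 was measured for Dusp2 (5.31 and 2.78, difference -2.52, adjusted p = 0.051) and Hspa1b (1.87 and 0.53, difference -1.35, adjusted p = 0.088). A fall that was larger in replicates 1 and 2 was measured for Eomes (-1.96 and -0.43, difference 1.53, adjusted p = 6.6e-06), Ddit4 (-2.004 and -0.65, difference 1.35, adjusted p = 0.004) and Trib3 (-1.78 and -0.30, difference 1.48, adjusted p = 4.6e-08). The sign differed between sets for Gata4 (-0.52 and 0.59, difference 1.11, adjusted p = 0.0023) and Cdx2 (-0.31 and 2.68, difference 2.99, adjusted p = 2.1e-04). Gata4, the GATA factor that acts beside GATA6 in PrE, held 19.3, 22.4, 39.5 and 22.7 at 0 h and 16.6, 12.1, 37.5 and 54.99 at 2 h.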

How the results depend on the processing

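The 305 and 53 genes at 4-fold and 892 and 636 at 2-fold were 305, 53, 905 and 654 with the replicate block, which brought Pou5f1 (adjusted p = 0.039) and Foxa2 (0.085) past the FDR and changed no other call of a named gene. With the replicates of each set averaged they were 299, 49, 758 and 481, 17 named genes no longer passed the FDR, and 10 members of the primitive endoderm network were called lower. Leaving out each library gave 303 to 315, 54 to 70, 841 to 937 and 604 to 696. A minimum mean of 50 left 174, 22, 478 and 297. The 4-fold falls were 21 with a pseudocount of 4, 17 on the deposited values (421 at 2-fold), 80 in replicates 1 and 2 and 83 in 3 and 4. List medians moved by more than their spread in these cases. Averaging in place of the median gave 2.20 for immediate-early regulators, 1.65 for ERK feedback genes, 0.89 for YAP targets, 1.499 for NF-kB genes and 1.45 for matrix genes. In the same order a minimum mean of 50 gave 1.80, 1.19, 0.90, 0.83 and 1.90, and a pseudocount of 4 gave 1.40, 0.66, 0.73 and 0.78 for the last 4. For YAP, NF-kB and matrix genes the deposited values gave 0.63, 0.81 and 0.78. A pseudocount of 0.5 gave 0.90 for YAP and 1.26 for NF-kB genes, limma-voom 1.36 for NF-kB genes, replicates 1 and 2 alone 0.65 for YAP and 0.74 for matrix genes, and no filter 0.89 for NF-kB and 0.68 for matrix genes. Leaving out each library gave 0.64 to 0.88 for YAP and 0.91 to 1.27 for NF-kB genes. All these medians stayed above 0. The sign held under all settings for 29 of the 48 list medians. The clock list was among those in which it did not hold, and its median reversed to 0.18 with a minimum mean of 50. Others had medians near 0. The formative list was at 0.08 over all libraries and -0.18 in replicates 1 and 2 alone, and the BMP list at -0.02 and 0.29. In replicates 1 and 2 alone Gata4 was at -0.52 and Cdx2 at -0.31, each the reverse of its value over all libraries. The FDR outcome and direction were kept in 3546 of 3665 comparisons of a named gene with an alternative. In 98 the gene no longer passed the FDR, in 19 it newly passed and in 2 it reversed. A fold change that fell below 2-fold was not counted here. The called genes that no longer passed the FDR with 1 library left out, with the library and the log2 fold change nearest 0, were Cdx2 (0 h replicate 3 or 4 or 2 h replicate 3 or 4, 0.68 at the least), Dnmt3l (0 h replicate 3 or 4 or 2 h replicate 1 or 2, 0.87 at the least), Olig2 (0 h replicate 2 or 2 h replicate 1 or 2, -1.06 at the least), Osmr (0 h replicate 1 or 2 or 2 h replicate 3 or 4, -0.50 at the least), Pdgfrb (0 h replicate 3 or 4 or 2 h replicate 1 or 2, -0.90 at the least), Slc39a8 (0 h replicate 2 or 3 or 4 or 2 h replicate 1 or 3, 0.74 at the least), Sox1 (0 h replicate 2 or 3 or 4 or 2 h replicate 2, -0.84 at the least) and Sox3 (0 h replicate 3 or 4 or 2 h replicate 1 or 2, 1.37 at the least). Sox17, below 2-fold, no longer passed the FDR. The causes were not tested.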

Other observations

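Several abundant genes outside the lists rose 4-fold, and were picked out after their values were seen. S100a6, which encodes a small calcium-binding protein, went from 110.4, 107, 39.5 and 52.9 at 0 h to 1177, 1195, 1021 and 999.7 at 2 h (log2 fold change 3.94, SE 0.27, adjusted p = 5.7e-13). S100a10, which encodes the partner of annexin A2, averaged 266 ± 116 to 1284 ± 333, and Anxa2 itself 26.1 ± 10.9 to 286 ± 5.40. Ahnak, a very large scaffold protein that binds the same complex, went from 678, 869, 1257 and 1377 to 7021, 7044, 7808 and 8285 (log2 fold change 2.90, SE 0.20, adjusted p = 8.4e-13). Clu, clusterin, a secreted chaperone, averaged 92.8 ± 25.8 to 1024 ± 146, Cavin1, a coat protein of caveolae, 532 ± 194 to 4207 ± 188, and Emp1, an epithelial membrane protein, 514 ± 178 to 2019.5 ± 491. The libraries of both times did not overlap for any of these 7 genes. The same held for 295 of the 305 genes called 4-fold higher and for 32.2% of all tested genes. Noct, a circadian phosphatase also called nocturnin, averaged 318 ± 24.6 to 2433 ± 351. Among solute carriers, found by symbol, 17 of 247 tested genes were called higher and 17 lower, and among zinc finger genes named Zfp, 12 of 361 in each direction, against 5.86% and 4.18% of all genes.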
